A study of Mus musculus with 8 samples.

Results

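The mitochondrial genome transcripts are the genes carried by mouse mitochondrial DNA (mtDNA), and they were taken as every gene of the deposited count table whose symbol starts with mt-. The rule found 32 of the 34299 genes in the table. GENCODE release M21 annotates 37 genes on mtDNA, and the 32 comprise all 13 messenger RNAs (mRNAs), both ribosomal RNAs (rRNAs) and 17 of the 22 transfer RNAs (tRNAs), while mt-Tf, mt-Tv, mt-Td, mt-Tk and mt-Tg were not analysed here. By complex of the respiratory chain, 7 of the mRNAs encode subunits of complex I, 1 of complex III, 3 of complex IV and 2 of complex V.

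The study sequenced polyadenylated RNA from whole mouse brain in 8 libraries. Fetal brains at gestation day 15 gave 3 libraries of wild-type mice (WT) and 3 of Cav1 knockouts (KO), and the brains of aged Cav1 KO mice at week 70 gave 2, so ages were compared within the KO alone. Cav1 encodes caveolin 1, a structural protein of caveolae, and the series is titled as a study of its part in metabolic programming of the fetal brain. The labels name neither the strain nor the Cav1 allele, and the replicate statement in the protocol refers to the fetal brains. Cav1 held 218 to 367 counts in the WT libraries and 0 to 5 in the KO libraries. Total counts were 19414747 to 20833397 in WT, 14110031 to 15245283 in KO at day 15 and 18924304 to 20203233 at week 70, so every WT library was deeper than every KO library of the same age. The X-inactivation transcript Xist held at least 54531 counts in each fetal library, 7969 in week 70 replicate 1 and 4 in week 70 replicate 2, whose Y-linked genes summed to 2219 counts against at most 4 in the other libraries. The week 70 libraries therefore differed from each other in a sex-linked readout, and each result below that rests on 1 of them is given without it.

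Both strands of mtDNA are transcribed into long precursors that cover many genes. Most mRNAs and both rRNAs are read from the heavy-strand promoter, while mt-Nd6 and a minority of the tRNAs are read from the opposite strand. tRNAs lie between many of the longer genes, and their excision by RNase P and ELAC2 releases the flanking RNAs, most of which then receive short poly(A) tails from the polymerase encoded by Mtpap. The proteins join subunits made from nuclear genes in the respiratory complexes, which supply much of the ATP of brain tissue. Libraries were made by capture on poly-T beads and random-hexamer priming after fragmentation. Capture depends on the tail and short RNAs are easily lost, so counts at tRNA and rRNA genes may also come from unprocessed precursors, and ratios between classes of RNA, where given, compare libraries and not the abundance of the classes.

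A stretch of mtDNA has a near-identical copy in the nuclear genome, and its sequences are shown first because they decide which of the counts can be assigned to mtDNA. In the GENCODE M21 transcripts on GRCm38, 7 unprocessed pseudogenes lie side by side on the minus strand of chromosome 1 between chr1:24611535-24616197 (4663 bases) and match mtDNA from chrM:6390-11042 (4653 bases). Of these copies, 5 had 0 mismatches to the mitochondrial gene over the whole alignment: Gm28661 to mt-Co2 over 681 bases, Gm10925 to mt-Atp6 over 678, Gm28437 to mt-Co3 over 783, Gm10222 to mt-Nd4l over 294 and Gm28439 to mt-Nd4 over 876 of its 1378 bases. The first 80 bases of mt-Atp6 and of its copy carry the same letters:
mt-Atp6, chrM:7927-8006, plus strand: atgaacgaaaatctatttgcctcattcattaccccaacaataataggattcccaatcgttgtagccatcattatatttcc
Gm10925, chr1:24614572-24614651, minus strand: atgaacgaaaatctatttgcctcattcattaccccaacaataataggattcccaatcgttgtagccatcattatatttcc
The other two copies carry 1 mismatch each. Gm29216 matches the last 483 of the 1545 bases of mt-Co1 except for A6393T, and Gm28438 matches 345 bases of mt-Nd3 except for T9461C, where the first letter is that of mtDNA, the number counts from the first base of mtDNA and the last letter is that of the copy. The mismatch is in capitals in each pair:
mt-Co1, chrM:6390-6423, plus strand: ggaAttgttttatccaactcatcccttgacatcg
Gm29216, chr1:24616155-24616188, minus strand: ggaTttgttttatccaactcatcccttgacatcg
mt-Nd3, chrM:9459-9491, plus strand: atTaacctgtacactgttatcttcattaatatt
Gm28438, chr1:24613087-24613119, minus strand: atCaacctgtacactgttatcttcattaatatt

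Accordingly 6 mRNAs lie wholly inside the copied stretch (mt-Co2, mt-Atp8, mt-Atp6, mt-Co3, mt-Nd3 and mt-Nd4l), 2 reach into it (mt-Co1 and mt-Nd4) and 5 lie outside it (mt-Nd1, mt-Nd2, mt-Nd5, mt-Nd6 and mt-Cytb). No annotated copy of mt-Atp8 itself was found, but its last 43 bases lie in the match to Gm10925. The rest of it falls in the gap between Gm28661 and Gm10925, which is 233 bases long on chromosome 1 and 233 bases long on mtDNA. How the authors' counting treated reads that match several places is not given in the sources used here, so the counts of the 8 mRNAs in or reaching into the stretch are uncertain. Pairs of genes also overlap within mtDNA, which adds a second ambiguity for the 2 shortest mRNAs. mt-Atp8 and mt-Atp6 share 43 bases, shown with the start codon of mt-Atp6 and the stop codon of mt-Atp8 in capitals, and mt-Nd4l and mt-Nd4 share the bases in capitals, shown with 20 bases on each side:
mt-Atp8 and mt-Atp6, chrM:7927-7969, plus strand: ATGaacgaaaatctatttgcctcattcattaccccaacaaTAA
mt-Nd4l and mt-Nd4, chrM:10147-10193, plus strand: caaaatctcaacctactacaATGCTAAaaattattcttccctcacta

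In the fetal brain, mitochondrial transcripts of every class held a larger share of the counts in KO than in WT. In WT replicates 1 to 3, mRNAs held 1.21, 1.29 and 1.25% of all gene counts, and in the KO replicates 3.05, 3.11 and 3.63%. No KO library overlapped a WT library, the means were 1.25 ± 0.0413% and 3.26 ± 0.316% (SD, n = 3 each), and their ratio was 2.61. For the rRNAs, the structural RNAs of the mitochondrial ribosome, the shares were 0.0544, 0.0617 and 0.0668% in WT and 0.234, 0.214 and 0.231% in KO, a ratio of 3.71. The tRNAs held 0.00265 ± 0.000225% of WT counts and 0.00728 ± 0.000633% of KO counts (SD, n = 3 each), a ratio of 2.74 and again without overlap. The exact permutation test gave p = 0.1 for each class, which is the smallest value that 3 against 3 libraries allow, or 0.227 after Benjamini-Hochberg adjustment over the 34 shares and ratios tested. In bulk tissue, a different number of cells or mitochondria and a different amount of RNA in each cannot be told apart.

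At week 70 the rRNA and tRNA shares lay above those of the day 15 KO libraries, while for the mRNAs this depended on the library size used. mRNAs held 4.41 and 3.54% of counts in the 2 week 70 libraries, and the lower of these fell within the range of the day 15 KO libraries (exact permutation p = 0.4, the smallest possible being 0.2). The rRNA share was 1.02 and 0.849%, above all 3 day 15 KO libraries, and its mean of 0.933 ± 0.118% (SD, n = 2) was 4.12 times theirs (exact permutation p = 0.2). The tRNA share was 0.00997 and 0.0153%, also above the day 15 KO libraries, with a ratio of means of 1.74. As shares of TMM-normalised library sizes (a scaling explained below), mRNAs stood at 5.87 and 4.63% at week 70 against 2.61, 2.64 and 3.09% at day 15 in KO, without overlap, and the ratios of means were 1.89 for mRNA, 6.39 for rRNA and 2.68 for tRNA. Counts of rRNA per count of mRNA were 0.0451 to 0.0533 in WT, 0.0636 to 0.0767 in KO at day 15 and 0.231 to 0.240 at week 70, so the 3 groups did not overlap.

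**Figure D1:**
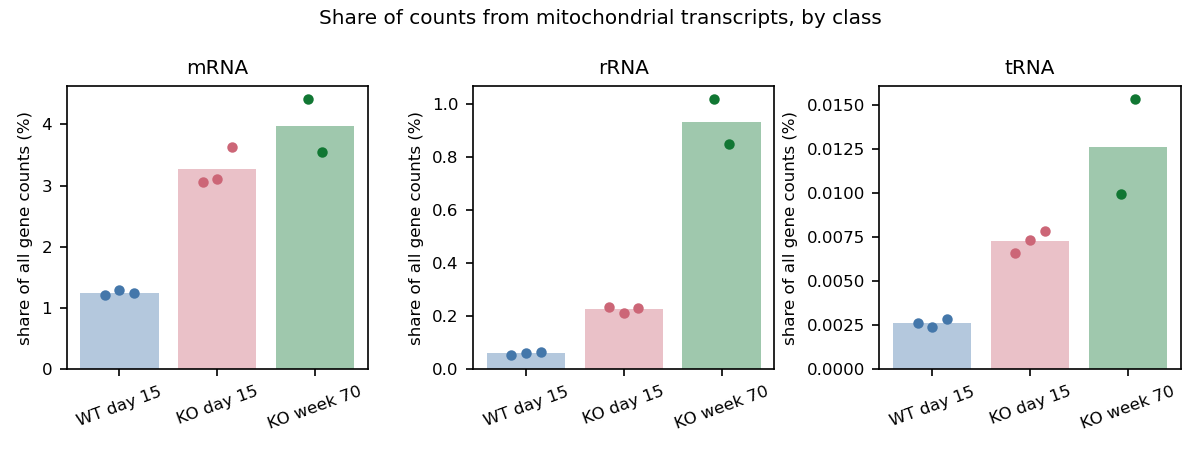
Share of all gene counts (%, linear axis from 0) held by mitochondrial mRNA, rRNA and tRNA in each of 8 libraries, with bars at the group means (n = 3, 3 and 2). The day 15 KO libraries lie above the WT libraries in each panel, and at week 70 the rRNA share reaches 1.02 and 0.849% while 1 of the 2 mRNA shares lies within the day 15 KO range.

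Per kilobase of gene, the order of the mRNAs was similar in the 2 fetal groups. In WT, mt-Co1 was highest at 3110 ± 44.9 counts scaled to a common library total (CPM) per kb (SD, n = 3), followed without overlap by mt-Cytb at 2135 ± 111, mt-Nd1 at 1639 ± 51.8 and mt-Nd2 at 848 ± 30.2. mt-Nd4 and mt-Nd5 overlapped each other at 729 ± 29.3 and 702 ± 33.9, and mt-Nd6 came next at 568 ± 56.3. The 6 mRNAs inside the copied stretch were the 6 lowest in each group: in WT they ran from 105 ± 3.54 for mt-Atp6 to 12.4 ± 1.34 for mt-Atp8. As a group they stood at 6.44% of the level per kb of the 5 mRNAs outside it in WT, 7.94% in KO at day 15 and 2.02% at week 70, a grouping made after the values were seen, so that nothing is read from a p for it although both of its comparisons are among the 34 shares and ratios adjusted over. In KO at day 15 the first 7 ranks were those of WT, and the neighbours mt-Atp6 and mt-Co3, and mt-Co3 and mt-Co2, overlapped. At week 70 mt-Nd1 and mt-Cytb overlapped at 5533 ± 997 and 5403 ± 1234 CPM per kb (SD, n = 2 each), and mt-Nd4, mt-Nd5 and mt-Nd6 lay between 2194 and 2310, where mt-Nd4 overlapped mt-Nd5 and mt-Nd5 overlapped mt-Nd6.

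**Figure D2:**
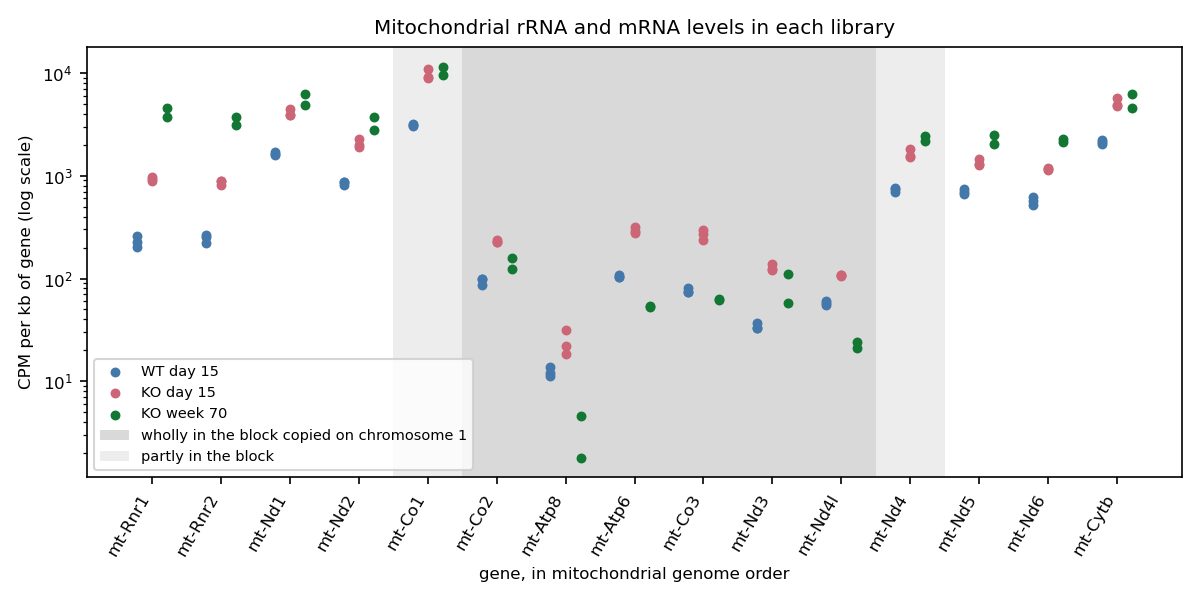
Level of each rRNA and mRNA gene in every library (CPM per kb of gene, log axis), in the order of the genes on mtDNA, with 3 WT, 3 day 15 KO and 2 week 70 KO points per gene. The 6 genes wholly inside the stretch copied on chromosome 1 (dark grey) are the lowest in each group, and their week 70 means lie below their day 15 KO means, while the means of all 9 other genes lie above.

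For single genes, counts were tested with the quasi-likelihood F-test of edgeR after scaling of library sizes by the trimmed mean of M values (TMM), with Benjamini-Hochberg adjustment over all genes tested. Of the 32 genes 25 passed the filter on low counts in the comparison of genotypes, all 15 mRNAs and rRNAs among them. Of the 25, 24 were called higher in the KO fetal brain and 0 lower (25 at an unadjusted p under 0.05, and 24 called by DESeq2). The direction turned for 15 named genes and for mt-Ts2 when transcript length and GC content were entered as an offset, as given below. Over all 19147 genes tested, 30.1% were called higher and 32.5% lower. The median log2 difference was 1.12 for the 25 genes and 0.03 for all genes tested. In CPM, 24 of the 25 had every KO library above every WT library, against 42.6% of all genes tested.

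**Figure D3:**
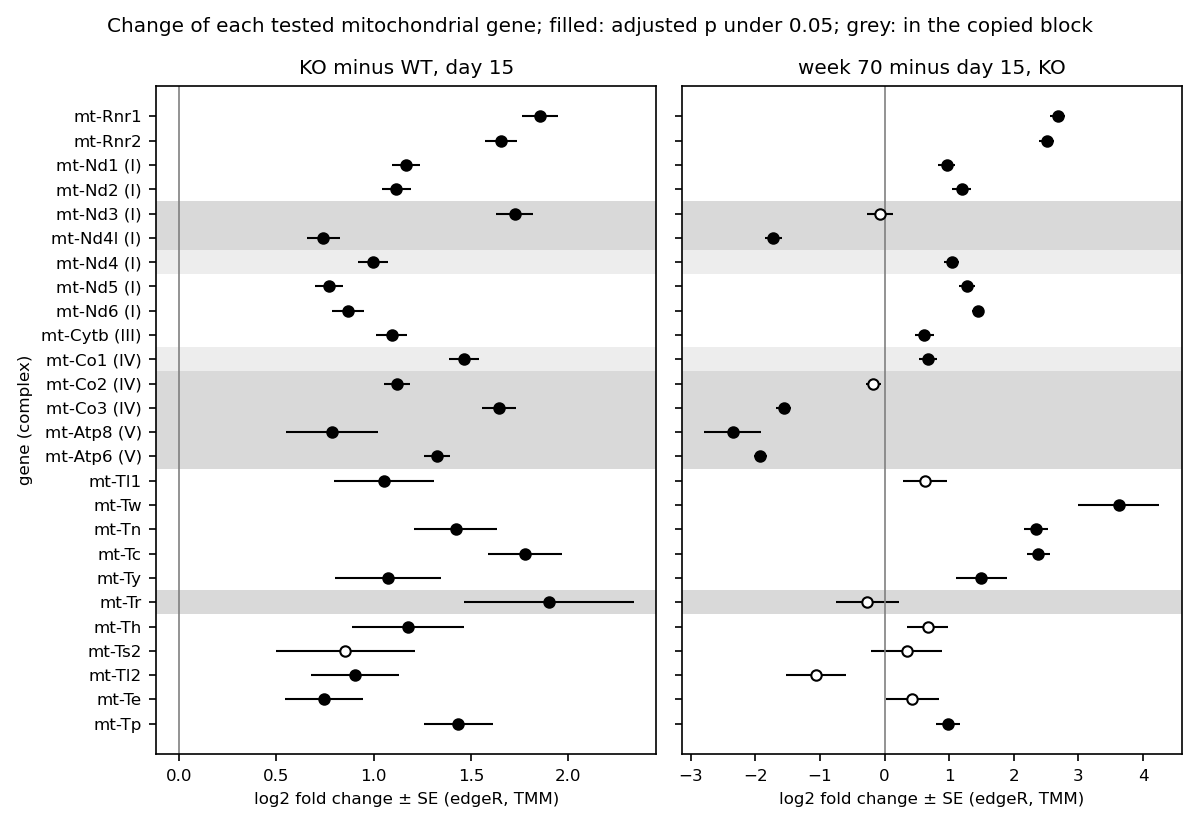
TMM-scaled log2 fold change with its standard error for each tested gene in KO minus WT at day 15 (left, 3 against 3 libraries) and week 70 minus day 15 in KO (right, 2 against 3), with filled points for adjusted p under 0.05 and grey bands for genes in or reaching into the copied stretch. All 25 points on the left lie above 0, from 0.74 to 1.90, whereas 14 filled points on the right lie above 0 and 4, all inside the stretch, lie below; a length and GC offset turns many of these signs.

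Complex I, the NADH dehydrogenase, has 7 subunits encoded in mtDNA, and the mRNAs of all 7 were called higher in the KO fetal brain, with a median log2 difference of 1.00. mt-Nd1 (chrM:2751-3707), whose product lies where the membrane arm meets the quinone site, measured 1519, 1618 and 1569 CPM in WT and 3750.3, 3747 and 4305 CPM in KO. The KO libraries stood 2.51 times above WT in mean CPM, and the log2 difference was 1.17 (SE 0.0719, adjusted p = 2.76e-07). mt-Nd2 (chrM:3914-4951), a proton-pumping subunit of the membrane arm, measured 844, 901 and 895 CPM in WT and 1992, 2065 and 2339 in KO. Its log2 difference was 1.12 (SE 0.0749, adjusted p = 4.98e-07).

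The 2 other pumping subunits differed by less on the log2 scale. mt-Nd4 (chrM:10167-11544) measured 962, 1042 and 1012 CPM in WT and 2115, 2125 and 2486 in KO, a log2 difference of 1.00 (SE 0.0784, adjusted p = 1.55e-06). mt-Nd5 (chrM:11742-13565) measured 1222, 1345 and 1275 CPM in WT and 2364, 2342 and 2627 in KO, a log2 difference of 0.77 (SE 0.0707, adjusted p = 4.78e-06). mt-Nd6 (chrM:13552-14070, minus strand) is the only mRNA of the light-strand transcript, and it measured 266, 325 and 294 CPM in WT and 594, 596 and 616 in KO. The KO replicates of mt-Nd6 lay close together and its log2 difference was 0.87 (SE 0.0814, adjusted p = 5.64e-06). Whether the counting used strand is not given in the sources used here, so reads of the mt-Nd6 locus from the opposite transcript could be counted with it.

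The 2 small complex I genes inside the copied stretch gave the extremes of the class. mt-Nd3 (chrM:9459-9806), a short subunit at the junction of both arms, measured 11.6, 11.6 and 12.8 CPM in WT and 42.6, 41.9 and 48.0 in KO, and its log2 difference of 1.72 (SE 0.0938, adjusted p = 1.21e-07) exceeded that of every other mRNA. mt-Nd4l (chrM:9877-10173), which overlaps mt-Nd4, measured 16.3, 18.1 and 17.1 CPM in WT and 32.3, 31.7 and 32.1 in KO, and its log2 difference of 0.74 (SE 0.0859, adjusted p = 2.76e-05) was below that of every other mRNA.

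Complex III, the cytochrome bc1 complex, has a single mtDNA-encoded subunit, cytochrome b. mt-Cytb (chrM:14145-15288) measured 2314, 2568 and 2447 CPM in WT and 5391, 5625 and 6458 in KO, with no overlap. The log2 difference was 1.09 (SE 0.0801, adjusted p = 9.25e-07).

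Complex IV, cytochrome c oxidase, takes its 3 core subunits from mtDNA, and all 3 mRNAs were called higher, with a median of 1.46. mt-Co1 (chrM:5328-6872), the catalytic subunit that holds the heme and copper centre, measured 4732, 4870.4 and 4811 CPM in WT and 13684, 13988 and 16752 in KO. It differed by 1.46 on the log2 scale (SE 0.0789, adjusted p = 1.16e-07), and KO replicate 3 was the highest of the KO libraries here as for most mRNAs. mt-Co2 (chrM:7013-7696), which takes electrons from cytochrome c, measured 59.6, 67.3 and 67.0 CPM in WT and 163, 153 and 155 in KO, a log2 difference of 1.12 (SE 0.0677, adjusted p = 2.40e-07). mt-Co3 (chrM:8607-9390) measured 58.5, 58.1 and 63.0 CPM in WT and 211, 184 and 233 in KO, a log2 difference of 1.64 (SE 0.0874, adjusted p = 1.08e-07).

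Complex V, the ATP synthase, has 2 membrane subunits from mtDNA, read from overlapping frames. mt-Atp6 (chrM:7927-8607), which forms the proton path beside the rotor ring, measured 69.9, 74.3 and 70.4 CPM in WT and 199, 188 and 214 in KO, a log2 difference of 1.32 (SE 0.0676, adjusted p = 8.44e-08). mt-Atp8 (chrM:7766-7969) held only 48 to 56 counts per WT library and 55 to 91 per KO library, which is 2.30, 2.84 and 2.47 CPM against 6.45, 4.53 and 3.74 CPM. Its log2 difference was 0.79 (SE 0.235, adjusted p = 0.0138), and the call was lost without KO replicate 1 (0.53, adjusted p = 0.0778).

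Between the genotypes both rRNAs had larger log2 differences than any of the 5 mRNAs outside the copied stretch. mt-Rnr1 (chrM:70-1024), the RNA of the small ribosomal subunit, measured 193, 218 and 248 CPM in WT and 935, 846 and 889 in KO, a log2 difference of 1.85 (SE 0.0931, adjusted p = 7.62e-08). mt-Rnr2 (chrM:1094-2675), the RNA of the large subunit, measured 351, 399 and 419.9 CPM in WT and 1408, 1296 and 1417 in KO, a log2 difference of 1.66 (SE 0.0816, adjusted p = 6.82e-08). Per library, the ratio of rRNA to mRNA counts was 1.43 times as high in KO as in WT without overlap (exact permutation p = 0.1).

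These gene-level calls were obtained without regard to gene length and base composition, and the mitochondrial genes lie at the edge of both. The 13 mRNAs are 204 to 1824 bases long with 31.9 to 41.1% GC. Of the 25 tested genes 16 lay below the first percentile of GC content of the protein-coding genes tested, which was 36.8% against a median of 49.9%. In length 14 of the 25 lay below the first percentile, which was 672 bases. In the comparison of ages 15 of the 26 tested genes lay below it in length (661 bases) and 16 in GC content. When each library was smoothed on transcript length and GC content and the smooth entered as an offset, the genotype calls split: 5 of the 25 genes were called higher, 11 lower and 9 not called, with backgrounds of 26% higher and 25.1% lower over 19050 genes. Those still called higher were mt-Rnr1 (0.47, adjusted p = 0.00184), mt-Rnr2 (0.51, adjusted p = 2.34e-04), mt-Co1 (0.48, adjusted p = 8.23e-06), mt-Co3 (0.29, adjusted p = 0.00379) and mt-Tp (0.58, adjusted p = 0.0272). Among complex I mRNAs 6 of 7 were then called lower, from -0.17 for mt-Nd1 to -0.69 for mt-Nd6 (adjusted p = 1.88e-05), and both complex V mRNAs were called lower. mt-Rnr1, mt-Rnr2 and mt-Co1 were the 3 genes called higher when the offset was smoothed over protein-coding genes alone (0.23, 0.47 and 0.39), where 12 were called lower, with backgrounds of 27% higher and 25.1% lower. Length and GC content were entered as measured properties only, and their part in the rise was not tested.

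**Figure D4:**
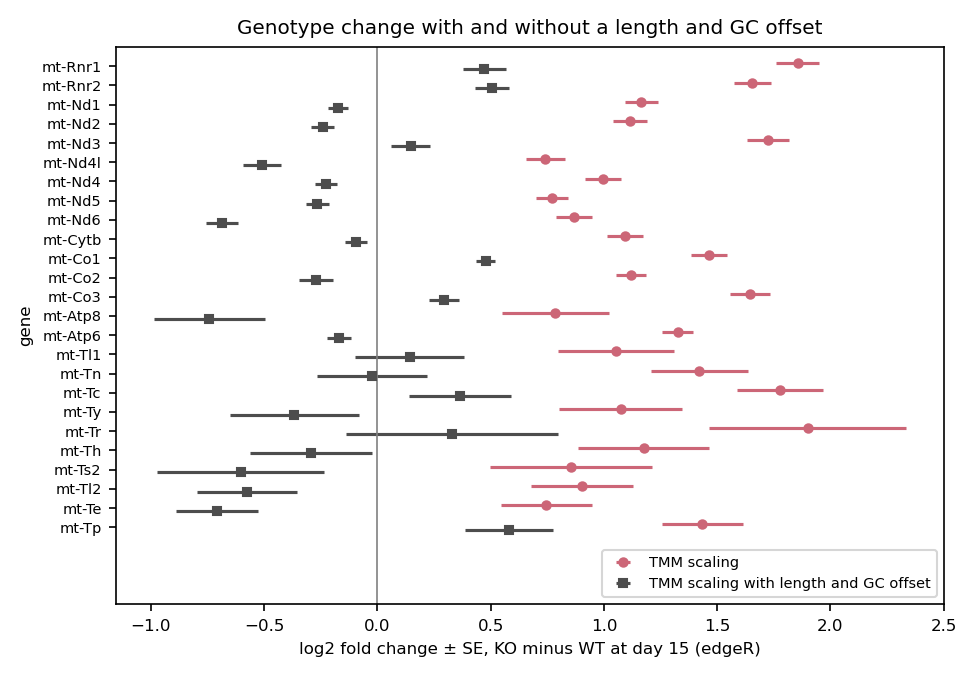
Log2 fold change of KO minus WT at day 15 (3 against 3 libraries) with its standard error for the 25 tested genes, from TMM scaling alone (circles) and with the length and GC offset (squares). Every circle lies above 0.7, whereas the squares run from -0.74 to 0.58, with mt-Rnr1, mt-Rnr2 and mt-Co1 at 0.47 to 0.51.

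Within the mitochondrial mRNAs, the proportions of the complexes differed between the fetal genotypes. Complex IV mRNAs held 40.2, 38.7 and 39.4% of mitochondrial mRNA counts in WT and 46.0, 46.1 and 47.3% in KO, a difference of 7.02 percentage points. Complex I mRNAs held 40.1, 40.8 and 40.5% in WT and 35.7, 35.2 and 34.3% in KO, and the complex III mRNA had 19.5 ± 0.376% in WT against 17.8 ± 0.224% in KO (SD, n = 3 per group). The groups did not overlap for any of these (exact permutation p = 0.1 each, adjusted 0.227 over 34 tests). mt-Co1 gained 6.89 of the 7.02 points of complex IV: it alone held 38.4 ± 0.719% in WT against 45.3 ± 0.753% in KO (SD, n = 3 per group). Complex V mRNAs held 0.593 ± 0.00970% and 0.631 ± 0.0379%. With the 8 mRNAs in or reaching into the copied stretch left out, mt-Cytb held 1.20 percentage points more in KO, so the lower complex III share turned around. Complex I then differed by -1.20 points in place of -5.38. Only complexes I and III are left in this comparison, so their values mirror each other. All complex IV and complex V mRNAs are among the 8, so the higher complex IV share cannot be checked this way.

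With age, the mitochondrial genes of the KO brain did not share 1 direction, and the mRNAs called lower all lay inside the copied stretch, although with the length and GC offset every tested gene was called higher, and with the offset smoothed over protein-coding genes alone 22 of 26 were. Of the 26 genes that passed the filter, 14 were called higher at week 70 than at day 15, 4 lower, and 8 were not called; over all 20000 genes tested 37.6% were called higher and 44.4% lower. The median log2 difference was 0.67 for these genes and -0.19 for all genes tested. In CPM, 10 of the 26 had both week 70 libraries above all 3 day 15 KO libraries, against 29.5% of all genes tested, and 7 had both below, against 59.1%. By complex, 5 of 7 complex I mRNAs were called higher and 1 lower, the complex III mRNA higher, 1 of 3 complex IV mRNAs higher and 1 lower, and both complex V mRNAs lower. The TMM factors were 1.17 to 1.18 at day 15 in KO and 0.751 to 0.767 at week 70, so a scaling by total counts gives other sizes: the median of all genes moved to -0.72, and 12 mitochondrial genes were called higher and 7 lower (27.2 and 56.1% of all genes tested). Without week 70 replicate 1 the calls were 20 higher and 5 lower, and without week 70 replicate 2 they were 13 higher and 7 lower.

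All 5 mRNAs outside the copied stretch were called higher at week 70. mt-Nd6 measured 1177 and 1099.9 CPM at week 70 against 594 to 616 in KO at day 15, a TMM-scaled log2 difference of 1.45 (SE 0.0916, adjusted p = 1.16e-07). mt-Nd5 measured 4511 and 3693 CPM against 2342 to 2627, a log2 difference of 1.28 (SE 0.121, adjusted p = 3.09e-06). mt-Nd2 measured 3872 and 2858 CPM against 1992 to 2339, a log2 difference of 1.19 (SE 0.142, adjusted p = 1.97e-05). In these 3 genes, both week 70 libraries lay above every day 15 library. mt-Nd1 measured 5969.9 and 4621 CPM against 3747 to 4305, a log2 difference of 0.96 (SE 0.135, adjusted p = 7.09e-05). mt-Cytb measured 7179.6 and 5183 CPM against 5391 to 6458, so that 1 week 70 library lay above and the other below the day 15 range; its log2 difference of 0.62 (SE 0.152, adjusted p = 0.00332) fell to 0.08 (adjusted p = 0.615) when total counts were used as library size.

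The 2 mRNAs that reach into the stretch went the same way. mt-Nd4 measured 3336 and 3029 CPM at week 70 against 2115 to 2486, a log2 difference of 1.04 (SE 0.115, adjusted p = 1.08e-05). mt-Co1 measured 17789 and 14732 CPM against 13684 to 16752, and its log2 difference of 0.67 (SE 0.139, adjusted p = 0.00117) was not called with total counts as library size (0.13, adjusted p = 0.386).

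Of the 6 mRNAs inside the stretch none was called higher and 4 were called lower. mt-Atp6 measured 37.1 and 36.1 CPM at week 70 against 199, 188 and 214 at day 15, a log2 difference of -1.92 (SE 0.0975, adjusted p = 2.09e-08). mt-Nd4l measured 6.24 and 7.24 CPM against 32.3, 31.7 and 32.1, a log2 difference of -1.72 (SE 0.131, adjusted p = 5.25e-07). mt-Co3 measured 48.5 and 49.7 CPM against 211, 184 and 233, a log2 difference of -1.56 (SE 0.114, adjusted p = 3.85e-07). In each of these the week 70 values, as CPM of total counts, lay close together and below the WT fetal values too. The TMM factors were 1.02 to 1.03 in WT and 0.751 to 0.767 at week 70. With TMM-normalised library sizes mt-Atp6 and mt-Nd4l stayed below the WT libraries, and mt-Co3 did not. mt-Atp8 was left with 19 and 7 counts, or 0.940 and 0.370 CPM, a log2 difference of -2.35 (SE 0.438, adjusted p = 5.54e-04). mt-Co2 measured 108 and 84.7 CPM against 153 to 163, which did not pass the test under TMM scaling (-0.17, adjusted p = 0.175) and was called lower with total counts (-0.71, adjusted p = 1.49e-04); without week 70 replicate 1 it was called lower at -0.36 (adjusted p = 0.00605) and without week 70 replicate 2 it stood at 0.01. For mt-Nd3 the week 70 libraries lay far apart, at 20.2 and 38.1 CPM against 41.9 to 48.0 (-0.07, adjusted p = 0.747): without week 70 replicate 1 it was called higher (0.31, adjusted p = 0.0279) and without week 70 replicate 2 lower (-0.58, adjusted p = 0.00142). With the length and GC offset all 26 genes were called higher at week 70 (39.6% of 19896 genes), including the 4 called lower without it, and mt-Co3 (1.11) and mt-Atp6 (1.43) had the lowest values of the 26. With the offset smoothed over protein-coding genes alone 22 were called higher and 2 lower, mt-Atp6 (-0.51) and mt-Co3 (-0.54), with backgrounds of 32.4% higher and 48.7% lower.

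The copies on chromosome 1 carried counts close to those of their mitochondrial counterparts where the match was complete. Gm28661 measured 55.2, 67.6 and 67.2 CPM in WT, which was 48.1, 50.1 and 50.1% of the counts of the pair with mt-Co2. Gm10925 held 50.7 to 52.1% of its pair with mt-Atp6 in WT and 51.6 to 51.9% in KO at day 15, and Gm28437 held 43.5 to 50.4% and 45.9 to 48.6% of its pair with mt-Co3. The near-equal split of these pairs was seen in all 6 fetal libraries. For genes that only reach into the stretch, Gm29216 held 0.917 ± 0.0200% of its pair with mt-Co1 and Gm28439 3.67 ± 0.162% of its pair with mt-Nd4 (SD, n = 3 WT libraries each). These percentages set a match of 483 bases against 1545 bases of mt-Co1, and 876 against 1378 of mt-Nd4. Per kb of their own length, Gm29216 stood at 90.4 CPM and Gm28439 at 43.7 in WT. The copies of genes inside the stretch ran from 22.3 (Gm28438) to 112 (Gm10925).

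In both comparisons the 7 copies moved in 1 direction each under TMM scaling. Values with the length and GC offset are not given here for the copies or for the summed counts below. Between the genotypes all 7 were called higher in KO (30.1% of all genes tested), from 0.53 for Gm10222 to 1.90 for Gm28438 on the log2 scale, and with age all 7 were called lower (44.4% of all genes tested), from -0.87 for Gm28661 to -2.89 for Gm28438. Their summed share of counts was 0.0280 to 0.0319% in WT, 0.0798 to 0.0903% in KO at day 15 and 0.0158 to 0.0206% at week 70, so the 3 groups did not overlap. At week 70 the split within pairs was less even: the copy held 61.3 and 52.8% of the mt-Atp6 pair, 39.3 and 37.2% of the mt-Co2 pair, 38.8 and 29.0% of the mt-Nd4l pair and 14.6 and 6.12% of the mt-Nd3 pair. Counts that match several places were not separable, and the share of copy reads that came from mtDNA was not tested. When the counts of each copy were added to its mitochondrial gene, the genotype calls were 24 higher and 0 lower as before, and with age all 6 mRNAs inside the stretch were called lower, mt-Co2 at -0.48 included (44.4% of all genes tested were lower).

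**Figure D5:**
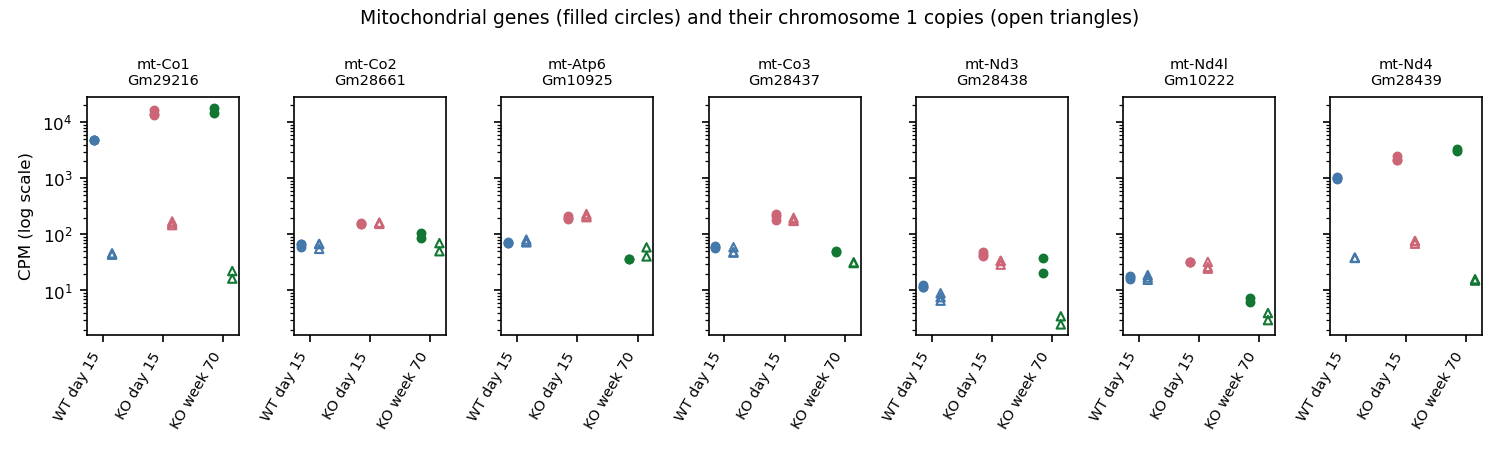
CPM (log axis) of 7 mitochondrial mRNAs (filled circles) and of their chromosome 1 copies (open triangles) in each library of the 3 groups (3 WT, 3 day 15 KO and 2 week 70 KO). For mt-Co2, mt-Atp6 and mt-Co3 the copy holds 43.5 to 52.1% of the pair in the fetal libraries, and all 7 copies lie lower at week 70 than in KO at day 15.

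Under TMM scaling the log2 differences of both rRNAs with age were larger than that of any mRNA. mt-Rnr1 measured 4301 and 3571 CPM at week 70 against 935, 846 and 889 in KO at day 15, a log2 difference of 2.68 (SE 0.117, adjusted p = 6.79e-09). mt-Rnr2 measured 5864 and 4924 CPM against 1408, 1296 and 1417, a log2 difference of 2.51 (SE 0.117, adjusted p = 1.10e-08). Across all alternatives without a length and GC offset, mt-Rnr1 ranged from 2.14 to 2.82 and mt-Rnr2 from 1.97 to 2.64. Set against the 5 mRNAs outside the copied stretch, rRNA counts were 0.0942 ± 0.00784 per mRNA count in WT, 0.152 ± 0.0129 in KO at day 15 (SD, n = 3 each) and 0.467 ± 0.0276 at week 70 (SD, n = 2).

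The proportions of the complexes also shifted with age. Complex I mRNAs held 42.9 and 43.3% of mitochondrial mRNA counts at week 70 against 34.3 to 35.7% in KO at day 15, and complex IV mRNAs 40.7 and 42.0% against 46.0 to 47.3%. The complex III mRNA held 16.3 and 14.6% against 17.6 to 18.1%. Complex V mRNAs held 0.0863 and 0.103% against 0.600 to 0.673%, a ratio of means of 0.150. None of the 4 shares overlapped between the ages (exact permutation p = 0.2, the smallest that 3 against 2 allow). The light-strand mRNA mt-Nd6 stood per kb at 45.6 ± 2.56% of the 4 heavy-strand mRNAs outside the stretch in WT, 40.3 ± 2.52% in KO at day 15 (SD, n = 3 each) and 52.3 and 64.3% at week 70.

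tRNA counts were low and mostly lay at genes annotated to the light strand, and the 3 tRNAs with the highest mean counts are shown with their anticodons in capitals:
mt-Tp, chrM:15356-15422, minus strand: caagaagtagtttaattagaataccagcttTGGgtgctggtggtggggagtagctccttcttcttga
mt-Tc, chrM:5192-5257, minus strand: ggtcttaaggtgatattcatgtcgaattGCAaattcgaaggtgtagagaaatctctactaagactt
mt-Tn, chrM:5089-5159, minus strand: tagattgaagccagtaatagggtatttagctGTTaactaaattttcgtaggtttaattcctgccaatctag
All 3 genes belong to the light-strand precursor by annotation. tRNA genes of that strand held 66.6 to 78.4% of tRNA counts in WT, 73.5 to 79.8% in KO at day 15 and 90.7 and 85.6% at week 70. Whether the counting used strand is not given, so reads of the opposite precursor could be counted at these genes. mt-Tc and mt-Tn are neighbours in a cluster of tRNA genes, so reads that span the cluster can be counted at either.

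Between the fetal genotypes 9 of the 10 tested tRNAs were called higher, against 30.1% of all genes tested, with a median log2 difference of 1.12. mt-Tp, the proline tRNA, measured 12.6, 8.06 and 12.1 CPM in WT and 27.7, 30.7 and 40.3 in KO, a log2 difference of 1.43 (SE 0.178, adjusted p = 4.67e-05). mt-Tc, the cysteine tRNA, measured 2.93, 2.33 and 2.47 CPM in WT and 8.36, 12.1 and 9.26 in KO, a log2 difference of 1.78 (SE 0.190, adjusted p = 1.54e-05). mt-Tn, the asparagine tRNA, measured 1.87, 1.93 and 1.91 CPM in WT and 5.67, 6.95 and 4.49 in KO, a log2 difference of 1.42 (SE 0.212, adjusted p = 1.82e-04). These 3 did not overlap between the genotypes. Of the other tRNAs called, mt-Tr (arginine) was higher by 1.90 (SE 0.436). It held 5, 7 and 5 counts in the WT libraries and 22, 21 and 10 in KO. The others were mt-Th (histidine) at 1.17, mt-Ty (tyrosine) at 1.07, mt-Tl1 (leucine) at 1.05, mt-Tl2 (leucine) at 0.90 and mt-Te (glutamate) at 0.75. mt-Ts2 (serine) was not called (0.85, adjusted p = 0.0583) and its libraries overlapped. With all 8 libraries in 1 fit, mt-Tl2, mt-Te and mt-Atp8 were not called (adjusted p = 0.0843, 0.131 and 0.0611). With the length and GC offset 1 of the 10 tRNAs was called higher and 2 lower, against 26% higher and 25.1% lower of all genes tested.

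With age 5 of the 11 tested tRNAs were called higher and none lower (6 were not called), against 37.6% higher and 44.4% lower of all genes tested. mt-Tc measured 30.0 and 41.4 CPM at week 70, a log2 difference of 2.38 (SE 0.176, adjusted p = 4.23e-07), and mt-Tn 19.4 and 20.8 CPM, a log2 difference of 2.35 (SE 0.181, adjusted p = 5.80e-07). mt-Tw, the tryptophan tRNA that follows mt-Nd2, held 2 to 5 counts per day 15 KO library and 19 and 51 at week 70 (3.62, adjusted p = 3.35e-04). mt-Tp measured 36.1 and 54.0 CPM, overlapping day 15 (0.98, adjusted p = 5.40e-04). mt-Ty was called at 1.50 (adjusted p = 0.00486) but not without week 70 replicate 2 (0.69, adjusted p = 0.0932). For most tRNAs week 70 replicate 2 was the higher of the 2, and mt-Te (46 and 148 counts), mt-Tl2 (12 and 47), mt-Tl1 (64 and 119) and mt-Th (49 and 93) were not called (adjusted p = 0.346, 0.0540, 0.114 and 0.0718). Without week 70 replicate 1, mt-Te, mt-Tl1 and mt-Th were called higher (1.07, 1.04 and 1.09), and without week 70 replicate 2, mt-Te and mt-Tl2 were called lower (-0.69 and -2.39). mt-Tl2 was also called lower by DESeq2 (adjusted p = 0.0481) and by edgeR with RLE scaling, upper-quartile scaling, no filter, total counts as library size or the replicate block (adjusted p = 0.0456, 0.0213, 0.0317, 0.00888 and 0.0464). The 7 tRNAs that did not pass the filter between the genotypes lay near the limit of detection in the fetal libraries: mt-Ta, for example, held 0 counts in all 3 WT libraries, which at 3 counts allows up to 0.144 to 0.155 CPM.

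The nuclear genes that act on mtDNA and its transcripts did not move as 1 group, and their counts are read against backgrounds of 30.1% higher and 32.5% lower over all genes tested between the fetal genotypes. Of 6 transcription genes, 5 were called higher in the KO fetal brain and 1 lower, with a median of 0.86: Tfam, which packages mtDNA and opens promoters, rose by 0.54 and Tfb2m by 1.00, while Polrmt, the RNA polymerase itself, fell by 0.80. With the length and GC offset the median of the 6 was 0.24. Tfam then stood at 0.51 and Tfb2m at 0.46, and Polrmt turned to 0.12. Of 6 replication genes 1 was called higher and 2 lower. Ssbp1 stood at 0.60, the helicase gene Twnk at -0.75 and the polymerase gene Polg at -0.44. With the offset Ssbp1 stood at 0.26 and Twnk at -0.32, and Polg turned to 0.39. Of 9 processing genes 2 were higher and 3 lower. The RNase P subunit gene Trmt10c stood at 0.94, Hsd17b10 at 0.37 and Elac2, whose product cuts the trailing end of tRNAs, at -0.74. With the offset Trmt10c stood at 0.49, Hsd17b10 at 0.03 and Elac2 at -0.27. Slirp and Lrpprc, whose products form a complex that stabilises mitochondrial mRNAs, parted: Slirp rose by 1.76 and Lrpprc fell by 0.44, and with Pde12 (-0.45) the list of 4 stability and polyadenylation genes had 1 higher and 2 lower. With the offset Slirp stood at 1.35, Lrpprc at -0.27 and Pde12 at -0.43. With age Slirp measured 0.859 ± 0.654 CPM (SD, n = 2) against 26.3 ± 4.39 CPM (SD, n = 3) in KO at day 15, a log2 difference of -4.41 (adjusted p = 6.15e-07).

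Genes for RNA decay and rRNA maturation also had calls in both directions. Among 4 decay genes 2 were called higher and 1 lower between the fetal genotypes, with Pnpt1 at 0.77, Rexo2 at 0.31 and Grsf1 at -0.40, and with age Pnpt1 fell by 1.65 and Grsf1 rose by 1.05. Of 8 rRNA maturation genes 4 were higher and 2 lower, with Mterf3 at 1.05, Fastkd2 at 0.53 and Mrm1 at -0.75. Of 20 genes for mitochondrial aminoacyl-tRNA synthetases and the related amidotransferase, 5 were higher and 9 lower, with Sars2 at -0.78 and Vars2 at -0.72. Vars2 turned to 0.13 and Rexo2 to -0.17 with the length and GC offset. Pnpt1 then stood at 0.16, Grsf1 at -0.43, Mterf3 at 0.47, Fastkd2 at 0.31, Mrm1 at -0.33 and Sars2 at -0.32. Lars2, which charges the leucine tRNAs mt-Tl1 and mt-Tl2, measured 596 ± 192 CPM in WT and 53.6 ± 15.8 CPM in KO at day 15 (SD, n = 3 each), a log2 difference of -3.64 (adjusted p = 6.41e-07), and rose by 2.88 with age. With the length and GC offset Lars2 stood at -3.28 between the genotypes and at 2.47 with age.

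Nuclear genes for the same complexes were mostly higher in the KO fetal brain, where 30.1% of all genes tested were called higher and 32.5% lower. Those called higher and lower were 30 and 1 of 36 for complex I (median log2 difference 0.92), 6 and 2 of 9 for complex III (1.20), 10 and 0 of 11 for complex IV (1.17) and 11 and 2 of 15 for complex V (0.69), and for complex II, which has no mtDNA-encoded subunit, 2 and 1 of 4 (0.19). With the length and GC offset these medians were 0.53, 0.24, 0.58, 0.08 and 0.06. With age 30 of the 36 complex I genes were called higher and 2 lower, against 37.6% higher and 44.4% lower of all genes tested. All 4 complex II genes, all 9 complex III genes and 10 of 11 complex IV genes were called higher. Of the 15 nuclear complex V genes 12 were called higher and 0 lower. Their median was 1.20, against -2.13 for the 2 mitochondrial complex V mRNAs. The same medians were 1.78 and 2.17 with the length and GC offset, which did not keep the contrast within complex V. With the offset smoothed over protein-coding genes alone the mitochondrial median was 0.08, and the nuclear median was not computed. Both mitochondrial complex V mRNAs lie inside the copied stretch, so their counts are uncertain.

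Cell-type markers differed between the groups as well. The 10 erythroid genes summed to 1060 to 1360 CPM in WT, 4213 to 5224 in KO at day 15 and 369 to 596 at week 70, and the 6 fibroblast and meningeal genes to 214 to 3982, 71.2 to 134 and 97.5 to 115. The 6 neuron genes summed to 3765 to 4187 CPM in WT, 3444 to 3490 in KO at day 15 and 5997 to 6158 at week 70, and the 4 oligodendrocyte genes to 64.9 to 73.8, 78.3 to 82.3 and 9319 to 9586. Choroid plexus genes summed to 53.2 CPM in one week 70 library and 1829 in the other. The 5 progenitor genes summed to 978 to 1093, 418 to 451 and 153 to 164 CPM, and no marker was at 0 in all libraries. In WT, KO at day 15 and week 70, the 5 endothelial genes summed to 161 to 222, 52.9 to 67.7 and 207 to 223 CPM, the 4 astrocyte genes to 174 to 213, 98.1 to 114 and 1295 to 1386 and the 4 microglial genes to 31.3 to 56.1, 17.9 to 20.5 and 197 to 243. The 8 skeletal muscle genes summed to at most 52.2 CPM in any library. Genes of 1 list did not always move together. Between the fetal genotypes 6 erythroid genes were called higher and 2 lower, and 2 neuron genes higher and 4 lower. Of the astrocyte genes 1 was higher and 2 lower, and of the microglial genes 1 and 3. All 5 progenitor and all 5 endothelial genes were lower, against 32.5% lower and 30.1% higher of all genes tested. With age 4 neuron genes were higher and 2 lower, and 1 progenitor gene higher and 4 lower, against 37.6 and 44.4%. The part of cell composition in the mitochondrial differences was not tested.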

How the data were processed

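The file deposited by the authors holds raw counts of reads for each gene, with Ensembl identifiers and symbols per the file headers. The submitters' processing notes name FastQC, cutadapt, Trimmomatic, HISAT2, featureCounts and edgeR, and the builds GRCm38 and GRCm39, without roles; annotation, strand and multi-mapping settings are not given in the sources used here. GENCODE M21 matched 33365 identifiers (97.3%) and gave length, GC content and positions on GRCm38. Nuclear copies were transcripts aligned by blastn 2.17.0 to mtDNA over at least 50% of their length at 85% identity. Tests on counts used edgeR 4.0.16 (R 4.3.3, filterByExpr, TMM, two-sided quasi-likelihood F-test, Benjamini-Hochberg threshold 0.05), with the 6 fetal or the 5 KO libraries. CPM used total counts. Floors of 3 counts cover counting error only. Shares were compared by two-sided exact permutation tests (scipy 1.17.1). Smooths came from mgcv 1.9.3, and scripts were tested on simulated data. Members and gene lists were chosen with earlier results of these data known. All mRNAs and rRNAs were named, with the 6 tRNAs of highest mean count and any other tRNA called; partner genes were the 3 of smallest adjusted genotype p per list with a mean of at least 50 counts. mt-Ts2 and mt-Ta were named after their values were seen. Alternatives were RLE, upper-quartile and non-member scaling, other filters, DESeq2 1.42.0, all 8 libraries, the replicate block, the offset, left-out libraries and, chosen after seeing the data, summed copies, total counts and the coding-gene offset. Where nothing names separate animals (week 70), p-values measure only the spread between libraries.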

Additional observations from a re-analysis of the deposited data

How the results depend on the processing

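Between the fetal genotypes the count of 24 genes called was 21 to 25, all higher, under every alternative but the length and GC offsets; with the replicate number as a block it was 24. The offset gave 16 calls, the replicate block with it 15, and the offset from protein-coding genes 15. With age the count of 18 became 26 with the offset, 26 with the replicate block and offset, 24 with the coding-gene offset (22 higher, with mt-Atp6 at -0.51 and mt-Co3 at -0.54 lower), 19 with total counts and 19 with the replicate block. Same-numbered libraries did not deviate together between the genotypes (correlations -0.16, -0.19 and -0.17, against 0.07 to 0.10 for differently numbered libraries). Between the ages the values were 0.03 and 0.01, where the deviations of the 2 week 70 libraries mirror each other. Deviations cancel within each group, so these correlations cannot decide whether the numbers pair the samples. Leaving out 1 library gave 23 to 25 calls for genotype and 18 to 25 for age, with 20 without week 70 replicate 2.

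With the length and GC offset, genotype values turned to -0.17 for mt-Nd1, -0.24 mt-Nd2, -0.024 mt-Tn, -0.37 mt-Ty, -0.27 mt-Co2, -0.74 mt-Atp8, -0.17 mt-Atp6, -0.51 mt-Nd4l, -0.23 mt-Nd4, -0.29 mt-Th, -0.58 mt-Tl2, -0.26 mt-Nd5, -0.69 mt-Nd6, -0.71 mt-Te and -0.095 mt-Cytb. With the replicate block added they were -0.17, -0.24, -0.055, -0.38, -0.28, -0.78, -0.17, -0.51, -0.23, -0.27, -0.57, -0.26, -0.69, -0.71 and -0.095 in that order. With the coding-gene offset they were -0.43, -0.44, -0.34, -0.69, -0.64, -1.09, -0.50, -0.91, -0.31, -0.60, -0.87, -0.29, -1.04, -1.03 and -0.29, and mt-Tl1, mt-Co3 and mt-Nd3 turned to -0.18, -0.043 and -0.20. The genotype value of mt-Ts2 turned to -0.60 with the length and GC offset and to -0.90 with the coding-gene offset. Age values turned with the offset to 2.83 for mt-Co2, 2.91 mt-Atp8, 1.43 mt-Atp6, 1.11 mt-Co3, 4.84 mt-Nd3, 5.53 mt-Tr, 2.27 mt-Nd4l and 3.59 mt-Tl2, and with the replicate block added to 2.73, 2.60, 1.39, 1.12, 4.74, 5.14, 2.22 and 3.26. The coding-gene offset gave 0.99 for mt-Co2, 0.67 mt-Atp8, 2.33 mt-Nd3, 4.85 mt-Tr, 0.11 mt-Nd4l and 3.30 mt-Tl2. The week 70 value of mt-Nd3 was 0.026 with all 8 libraries in 1 fit and 0.31 without week 70 replicate 1, those of mt-Co2 ran from -0.36 to 0.0087 with 1 library left out, those of mt-Te from -0.69 to 1.07, and mt-Te stood at -0.093 with total counts. The cause of these changes was not tested.

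With TMM-normalised library sizes the genotype ratios of the mRNA, rRNA and tRNA shares were 2.27, 3.23 and 2.39, and the age ratios 1.89, 6.39 and 2.68. Without the 8 mRNAs in or reaching into the copied stretch the mRNA genotype ratio was 2.31, complex I differed by -1.20 and complex III by 1.20 percentage points between the genotypes, and complex III by -8.31 with age. The complex V difference was 0.0891 points between the genotypes and -1.04 with age with copies added, and -1.05 per kilobase. Leaving out 1 library gave genotype ratios of 2.46 to 2.69 (mRNA), 3.52 to 3.90 (rRNA) and 2.63 to 2.87 (tRNA), and age ratios of 1.09 to 1.35, 3.75 to 4.49 and 1.37 to 2.10. Genotype differences of complexes I, III, IV and V then ran from -5.67 to -5.01, -1.86 to -1.49, 6.62 to 7.38 and 0.0174 to 0.0541 points, and age differences from 7.66 to 8.32, -3.22 to -1.55, -5.72 to -4.49 and -0.552 to -0.515.

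Depth limits mt-Atp8 and the tRNAs other than mt-Tp and mt-Tc, with fewer than 100 counts in most libraries.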

Other observations

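Nuclear copies with less complete matches are also listed. Gm13340 on chromosome 2 (chr2:22588103-22589647, minus strand, GRCm38) matches mt-Co1 over 1545 bases at 97.6% identity with 37 mismatches. It measured 4.61, 5.48 and 5.67 CPM in WT, 18.7, 14.6 and 17.4 CPM in KO at day 15, and 12.7 and 8.88 CPM at week 70. Its log2 difference was 1.52 between the fetal genotypes (edgeR adjusted p = 6.68e-06) and -0.11 with age (adjusted p = 0.584), where Gm29216, the chromosome 1 copy of mt-Co1, stood at -2.51. Gm13341, a neighbour of Gm13340 that matches mt-Co2 with 16 mismatches, measured 1.83 to 1.97 CPM in WT, 4.43 to 4.92 CPM in KO at day 15, and 5 and 0 counts at week 70.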
